A study of Mus musculus with 10 samples.

Results

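Promoter peaks of elongating RNA polymerase II were examined in muscle stem cells (MuSCs) of the mouse, kept in culture, which are the satellite cells that regenerate skeletal muscle. CUT&RUN, in which an antibody tethers a nuclease that releases the nearby DNA for sequencing, was done against RNA polymerase II carrying phosphate on serine 2 of the repeats in its tail (Pol II S2P). A peak was included if it lay on an autosome, was shorter than 2000 bases, was listed with a protein-coding gene and had its centre within 1000 bases of the annotated start of that gene. This selected 5978 of the 51322 Pol II S2P peaks, or 11.8% of the 50698 autosomal ones, at 5363 genes. The selection used position, annotation and peak length, and not the score. Length comes from the peak calls on this signal, and its Spearman correlation with score was 0.939 over the selected peaks. The length limit therefore also removes peaks with high scores. Of these genes, 4757 had 1 promoter peak, 597 had 2 and 9 had 3, and peaks of the same gene share their start site and are not independent.

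The control cells (Ctrl, Pax7CreERT/Suv4-20h1WT in the labels) and the mutant cells (sKO, Pax7CreERT/Suv4-20h1KO) both carried Pax7CreERT, a tamoxifen-inducible Cre recombinase driven by the satellite cell gene Pax7. In sKO, the Cre inactivates Kmt5b, also called Suv4-20h1, which encodes a methyltransferase for lysine 20 of histone H4, only in cells that express Pax7. The study describes the libraries of a genotype as biological replicates, and the labels do not say from which animals or cultures they came. The genotypes had 2 libraries each with this antibody and 2 each with an antibody against monomethylated H4K20 (H4K20me1). The ages of the mice are not given in the labels, and the IgG libraries, 1 per genotype, were not analysed here.

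Pol II starts transcription with an unphosphorylated tail, is phosphorylated at serine 5 near the start and often pauses there. The kinase complex P-TEFb, made of Cdk9 and a cyclin T, then releases it, and phosphorylation at serine 2 rises as the polymerase moves into the gene body. Serine 2 phosphorylation near a start can mark polymerase that is leaving the start, polymerase of an upstream or divergent transcript, or polymerase of a gene so short that start and body are not resolved.

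The promoter sequences of some of the genes named below are shown first. They are the 250 bases before the RefSeq start, from GRCm38.p6, 5′ to 3′ on the strand of the gene, in lower case. Capitals mark short motifs found on either strand, where overlapping matches run together: the TATA box (TATAAA), the CCAAT box bound by NF-Y, the GC box (GGGCGG) bound by Sp1 and related factors, the E-boxes CAGCTG and CACGTG, the cyclic AMP response element (CRE) TGACGTCA, and the others spelled out with the motif counts. The RefSeq start differs from the start listed with the peaks by 78 bases for Hist1h3b, 52 for Hist2h2bb, 13 for Rrm2 and at most 5 for the others. The first 5 are histone genes of the H4, H2A, H3 and H2B classes whose peaks were called lower in sKO once the libraries were set to equal totals. Hist1h4i lies at chr13:22041363-22041612 on the minus strand, Hist1h2ag at chr13:22042950-22043199 on the minus strand, Hist1h3b at chr13:23752095-23752344 on the plus strand, Hist1h2bb at chr13:23746484-23746733 on the plus strand and Hist2h2bb at chr3:96269450-96269699 on the plus strand.
Hist1h4i: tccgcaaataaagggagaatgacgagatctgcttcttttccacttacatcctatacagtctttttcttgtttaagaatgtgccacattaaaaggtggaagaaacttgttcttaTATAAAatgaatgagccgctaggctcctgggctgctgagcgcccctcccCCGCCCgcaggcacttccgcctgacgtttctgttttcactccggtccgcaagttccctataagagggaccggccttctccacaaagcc
Hist1h2ag: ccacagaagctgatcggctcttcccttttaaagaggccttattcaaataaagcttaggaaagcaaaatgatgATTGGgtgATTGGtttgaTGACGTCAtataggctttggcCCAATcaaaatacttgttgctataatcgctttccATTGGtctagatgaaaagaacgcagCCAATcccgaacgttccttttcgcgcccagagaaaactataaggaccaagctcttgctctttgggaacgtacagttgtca
Hist1h3b: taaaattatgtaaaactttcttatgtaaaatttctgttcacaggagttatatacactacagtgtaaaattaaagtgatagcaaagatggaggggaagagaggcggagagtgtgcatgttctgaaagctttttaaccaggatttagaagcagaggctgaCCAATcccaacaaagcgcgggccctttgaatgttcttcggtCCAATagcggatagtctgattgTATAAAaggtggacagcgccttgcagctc
Hist1h2bb: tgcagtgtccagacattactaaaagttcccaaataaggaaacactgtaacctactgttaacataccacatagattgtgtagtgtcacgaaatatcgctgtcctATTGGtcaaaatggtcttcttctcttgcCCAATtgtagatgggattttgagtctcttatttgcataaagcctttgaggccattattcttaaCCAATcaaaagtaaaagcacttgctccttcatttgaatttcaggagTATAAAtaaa
Hist2h2bb: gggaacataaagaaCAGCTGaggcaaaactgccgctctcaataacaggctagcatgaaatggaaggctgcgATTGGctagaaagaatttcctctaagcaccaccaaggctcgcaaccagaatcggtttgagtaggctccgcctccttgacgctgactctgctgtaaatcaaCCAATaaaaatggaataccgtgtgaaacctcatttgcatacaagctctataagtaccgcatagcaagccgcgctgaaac

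For comparison, Rrm2 (chr12:24708004-24708253, plus strand) is a GC-rich promoter of the DNA replication list that was also lower, Nacad (chr11:6606055-6606304, minus strand) and Gp1ba (chr11:70638872-70639121, plus strand) were higher, and Cic (chr7:25267449-25267698, plus strand) was among the promoter peaks with the highest scores.
Rrm2: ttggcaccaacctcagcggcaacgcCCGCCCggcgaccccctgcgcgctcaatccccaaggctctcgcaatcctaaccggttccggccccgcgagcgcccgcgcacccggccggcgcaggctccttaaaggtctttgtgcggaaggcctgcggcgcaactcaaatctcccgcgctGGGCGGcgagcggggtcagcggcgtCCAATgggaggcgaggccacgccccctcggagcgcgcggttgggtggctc
Nacad: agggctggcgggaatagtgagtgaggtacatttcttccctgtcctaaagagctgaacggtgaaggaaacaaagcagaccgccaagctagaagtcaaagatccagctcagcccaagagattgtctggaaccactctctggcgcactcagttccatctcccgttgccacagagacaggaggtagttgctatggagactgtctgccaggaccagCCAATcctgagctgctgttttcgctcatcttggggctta
Gp1ba: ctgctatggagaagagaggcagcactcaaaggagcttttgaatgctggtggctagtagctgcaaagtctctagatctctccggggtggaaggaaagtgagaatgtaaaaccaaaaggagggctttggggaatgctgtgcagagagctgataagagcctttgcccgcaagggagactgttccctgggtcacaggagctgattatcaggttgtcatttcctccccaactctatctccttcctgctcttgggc
Cic: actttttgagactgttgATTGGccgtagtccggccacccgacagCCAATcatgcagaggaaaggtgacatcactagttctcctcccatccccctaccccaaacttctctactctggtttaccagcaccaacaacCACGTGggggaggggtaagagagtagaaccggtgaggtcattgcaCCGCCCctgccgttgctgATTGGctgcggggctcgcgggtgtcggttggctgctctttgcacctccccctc

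Pol II S2P peaks at promoters were placed close around the start. Their centres had a median position of 58 bases downstream of it, with quartiles of 72 bases upstream and 319 bases downstream, and 4066 (68.0%) lay within 250 bases of it. The peak spanned the start itself in 4082 cases (68.3%), and 2395 centres (40.1%) lay upstream, none of them farther than 754 bases. Every upstream peak reached the start, so peaks wholly upstream of a gene are not among them. The median length was 504 bases, with quartiles of 308 and 692 and a range from 201 to 1994.

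The deposited score of a peak is its spike-in normalised coverage, not divided by its length. The mean score over the 4 libraries had a median of 74.5 (quartiles 38.5 and 132.2, range 9.5 to 857) at promoters, 39.5 at the 28738 autosomal peaks elsewhere in protein-coding genes and 42.5 at the 13442 peaks listed with no gene. Much of this followed length, since the Spearman correlation of score and length over the promoter peaks was 0.939. Per kilobase of peak, promoters still stood highest, at a median of 150.5 against 113.9 and 119.8. At the outer limit of the selection, the 212 peaks in the last 100 bases had a median score of 39.5, and the 204 peaks in the next 100 bases had 38.9. The length limit removed 94 broad promoter peaks with a median score of 620. Just below that limit, 30 peaks had a median of 461, and just above it 27 peaks had 479.5.

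The base composition set promoter peaks apart. Their median GC content was 60.3% (quartiles 55.1 and 65.2), against 47.0% for both other classes of peak. The ratio of observed to expected CpG dinucleotides, which is high in CpG islands, had a median of 0.746 and exceeded 0.6 in 73.7% of promoter peaks, against 0.19 and 4.4% of peaks elsewhere in protein-coding genes. Promoter peaks with a ratio above 0.6 had a median score per kilobase of 158.5 (n = 4408) and those with a ratio under 0.4 one of 120.0 (n = 705). Over all promoter peaks the score per kilobase had a Spearman correlation of 0.130 with this ratio and of 0.0292 with GC content, both across peaks of the same libraries.

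**Figure D1:**
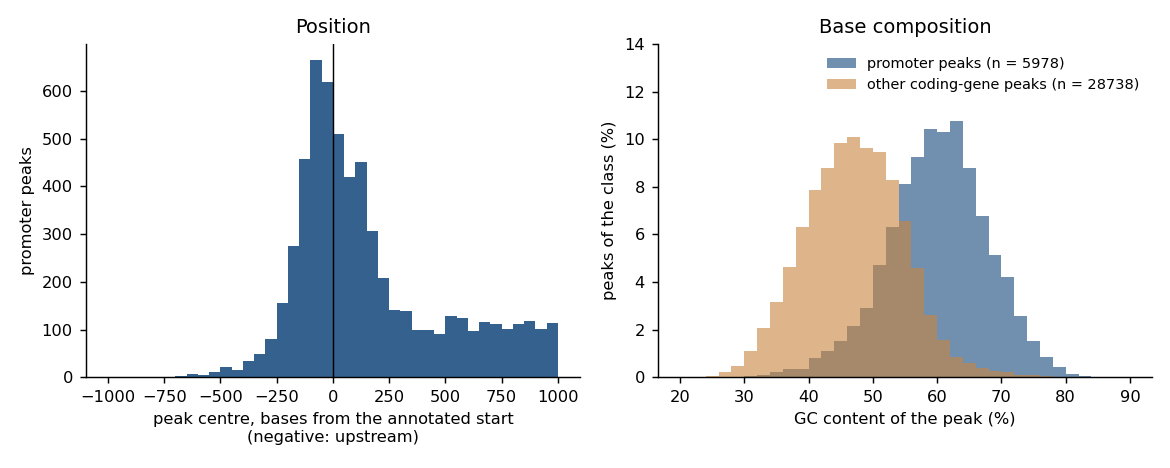
Left, number of promoter peaks per 50 bases of distance between peak centre and annotated start; right, GC content of promoter peaks and of other autosomal peaks in protein-coding genes, as a percentage of each class. The centres have their median 58 bases downstream of the start, and the median GC content is 60.3% at promoters and 47.0% elsewhere in coding genes.

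RefSeq windows of 300 bases, from 250 before to 50 after the start, could be matched to 4227 of the 5363 genes. The GC box was present in 69.6% of them and in 35.7% of all 32851 windows of the table. ETS-type sites (CCGGAAG) were found in 22.3% against 8.86%, NRF1 sites (GCATGCGC) in 6.62% against 2.71%, YY1 sites (AAGATGGC) in 5.56% against 2.75%, E2F sites (TTTCCCGC or TTTGGCGC) in 3.93% against 1.56% and the motif TCTCGCGA in 2.7% against 0.995%. These are motifs of broad, GC-rich promoters of genes used by most cells. By contrast the TATA box occurred in 6.20% against 13.6%, the AP-1 site (TGANTCA) in 4.47% against 7.81% and the E-box of MyoD type (CAGCTG) in 14.4% against 16.3%. The CCAAT box was found in 45% against 37.4%, the CRE (TGACGTCA) in 3.86% against 1.79% and the E-box of Myc and USF (CACGTG) in 10.5% against 7.15%. Histone promoters differed from this pattern, as 15 of 26 matched windows held a TATA box (57.7%), 22 held a CCAAT box (84.6%) and 10 held a GC box (38.5%). The sequences above show both forms, with CCAAT boxes at 4 of the 5 histone promoters printed, up to 5 of them in Hist1h2ag, and 2 GC boxes in Rrm2. Matches were counted at any distance from the start, so a TATAAA is named by its letters and not by its position. Of the 250 bases printed, it begins at base 114 in Hist1h4i and at base 241 in Hist1h2bb. A match to these letters is a description of the sequence and does not show that the factor was bound. Base composition differed too, with a median GC content of 61.3% in the 4227 windows and 52.7% in all 32851. The median CpG ratio was 0.798 and 0.384, and the motif shares were not adjusted for composition. The 4227 windows belong to protein-coding genes, whereas the 32851 were not filtered by gene type. These contrasts therefore do not isolate the presence of a promoter peak.

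The highest score was that of Spag7, whose peak also reached the end of Camta2. Spag7 (chr11:70667902-70669827) scored 815 and 900 in Ctrl, with 1018 and 695 in sKO. Rras, a small GTPase (chr7:45016954-45018278), scored 759 and 824 against 886 and 634, and Cic, a transcriptional repressor downstream of growth factor signalling (chr7:25267266-25268522), 783 and 836 against 804 and 658. In all 3 the genotypes overlapped on the deposited scale. Per kilobase, the order within the 12 highest-scoring peaks was led by Rab40c at 625.4, Cic at 612.8, Rras at 585.5 and Mylpf at 518.8, and Chmp2a was lowest at 315.9. Mylpf encodes a regulatory myosin light chain of fast muscle fibres, but its peak also held the start of Tbc1d10b on the opposite strand, so the signal cannot be given to either gene alone. The 12 also included Trappc3, Usp5 and Lims1, which links integrins to the actin cytoskeleton. Ell, an elongation factor that keeps Pol II moving, scored 743 and 704 in Ctrl and 896 and 629 in sKO. Egr1, an immediate early transcription factor induced by growth signals, scored 702 and 721 against 730 and 550.

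Promoter peaks were found at markers of the labelled cell type and not at those of its neighbours in muscle. Of the 8 marker genes of satellite cells and myoblasts, 5 had a promoter peak, among them Myod1, the transcription factor that commits cells to the muscle lineage, at 275 and 217 (Ctrl) against 214 and 164 (sKO). Pax7 scored 45 and 69 in Ctrl and 55 and 60 in sKO, and Des, the muscle intermediate filament, 98 and 156 against 117 and 89. Of 7 genes of differentiated muscle, 1 had a promoter peak, namely Myog at 59 and 92 against 85 and 53. No promoter peak was listed for any of the 5 fibro-adipogenic, 4 endothelial, 5 leukocyte and 3 Schwann cell markers, of which 1, 1, 2 and 1 had a peak anywhere in the gene. The 2 peaks at leukocyte markers were not weak, summing to 900 and 997 in Ctrl and 1368 and 874 in sKO. The 42 peaks of the satellite cell and myoblast markers summed to 5230 and 5873 in Ctrl and 6292 and 4220 in sKO. Kmt5b itself had no promoter peak. Its 2 Pol II S2P peaks, centred 1440 and 41389 bases downstream of the start, scored 17 and 36 (Ctrl) against 26 and 12 (sKO), and 7 and 26 against 22 and 10 and do not check the deletion. The other H4K20 methyltransferases were occupied, Kmt5a with 274 and 344 in Ctrl and 267 and 254 in sKO, and Kmt5c with 356 and 440 against 403 and 325.

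To ask whether promoter occupancy depended on Kmt5b, each peak with a mean score over 50 was compared between genotypes with limma on log2(score + 1), fitted over all autosomal peaks. Calls required an adjusted p (Benjamini-Hochberg) under 0.1 together with a change of more than 0.5 on the log2 scale. On the deposited scale no promoter peak was called among 3927 tested, and 26 had an unadjusted p under 0.05, 21 of them higher in sKO. Over all 22353 tested peaks, 0.0447% were called higher and 0.00447% lower. The autosomal scores summed to 3224367 and 4201202 (Ctrl), and to 4836482 and 3401198 (sKO), so that libraries of 1 genotype differed in scale by more than the genotypes did. The median log2 fold change of sKO over Ctrl was 0.01 at promoter peaks and 0.14 at the other tested peaks. In these bulk libraries, a lower score can come from fewer cells with the polymerase in place or from less polymerase per cell, which cannot be told apart.

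Among the promoter peaks with the smallest p on this scale, none of them called, those of Gm1113, Zfp729b, Dpp7, Adssl1 and Gp1ba were higher in both sKO libraries than in both Ctrl libraries. The scores of Gm1113 were 16 and 43 (Ctrl) against 131 and 83 (sKO), and the fitted log2 fold change was 1.94 ± 0.54 (SE, n = 2 per group, limma adjusted p = 0.304). Prdx5, a peroxiredoxin, fell outside the call too, with 119 and 87 in Ctrl and 70 and 39 in sKO, which is -0.95 ± 0.44 (limma adjusted p = 1). Mrpl46, Hist1h4i, Gart and Hist1h3c made up the other lower ones, with log2 fold changes between -0.92 and -0.82 and limma adjusted p of 1.

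As a share of each library, promoters held less of the Pol II S2P score in both sKO libraries than in both Ctrl libraries. They took 16.4% and 16.1% of the autosomal score in Ctrl against 14.6% and 15.1% in sKO, a difference of -1.42 percentage points. The genotypes did not overlap, and the difference was larger than the pooled standard deviation of 0.302 percentage points, but with 2 libraries against 2 the exact two-sided permutation test gave p = 0.333, the smallest value it allows. The differences by position were -0.757 points upstream of the start, -0.434 points in the 250 bases after it, -0.117 points from there to 500 bases and -0.113 points from there to 1000 bases, and the genotypes overlapped in none of these 4 zones (exact permutation p = 0.333 in each). Peaks 1 to 2 kb from the start held 3.16% and 3.14% in Ctrl against 3.01% in both sKO libraries, and those at 2 to 5 kb held 5.77% and 5.44% against 5.33% and 5.28%. From 5 kb outwards in coding genes the genotypes overlapped. Peaks listed with no gene held 23.0% and 23.4% in Ctrl and 25.1% and 24.6% in sKO.

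GC content moved with this result. With each library scaled to the same autosomal total, promoter peaks up to 45% GC had a median log2 fold change of -0.02 (n = 65), those of 55 to 60% one of -0.13 (n = 1118) and those over 70% one of -0.22 (n = 217). Other peaks in coding genes, in the same GC classes, had medians of 0.06 (n = 3733), -0.12 (n = 1416) and -0.22 (n = 50). Peaks listed with no gene had 0.18 (n = 1897), -0.08 (n = 452) and -0.15 (n = 24). Both sKO libraries showed this trend at promoters, with medians of -0.18 and -0.11 relative to the Ctrl mean at 60 to 65% GC, whereas each Ctrl library lay within 0.014 of that mean. When the libraries were centred within 20 classes of GC content, an alternative chosen after seeing the data, the promoter share became 15.5% and 15.7% in Ctrl, and 15.2% and 15.4% in sKO, and the difference shrank from -1.42 to -0.321 points, still without overlap.

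**Figure D2:**
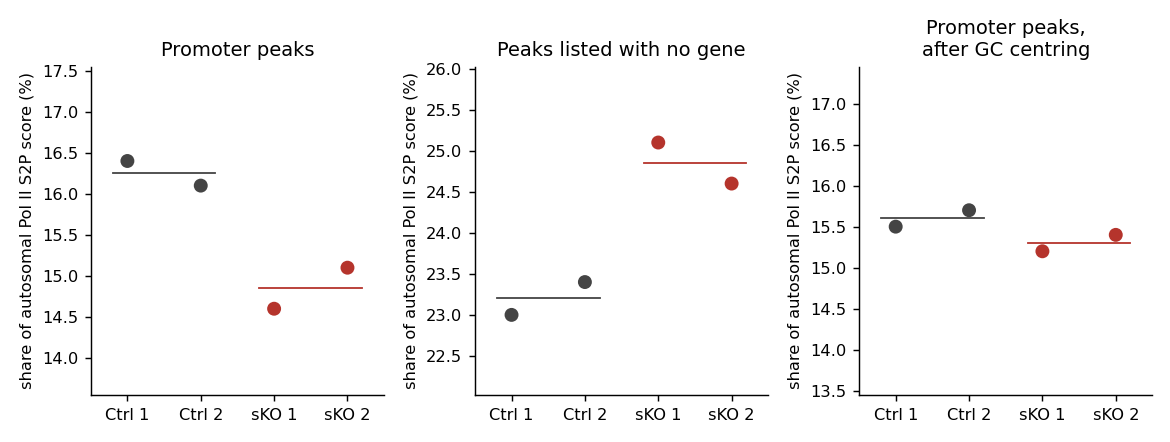
Share of the autosomal Pol II S2P score per library, in percent, for promoter peaks, for peaks listed with no gene and for promoter peaks after centring by GC content; points are libraries, lines are means of 2 libraries, and each vertical axis spans 4 percentage points but does not start at 0. The promoter shares are 16.4 and 16.1 in Ctrl and 14.6 and 15.1 in sKO, and 15.5, 15.7, 15.2 and 15.4 after centring.

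**Figure D3:**
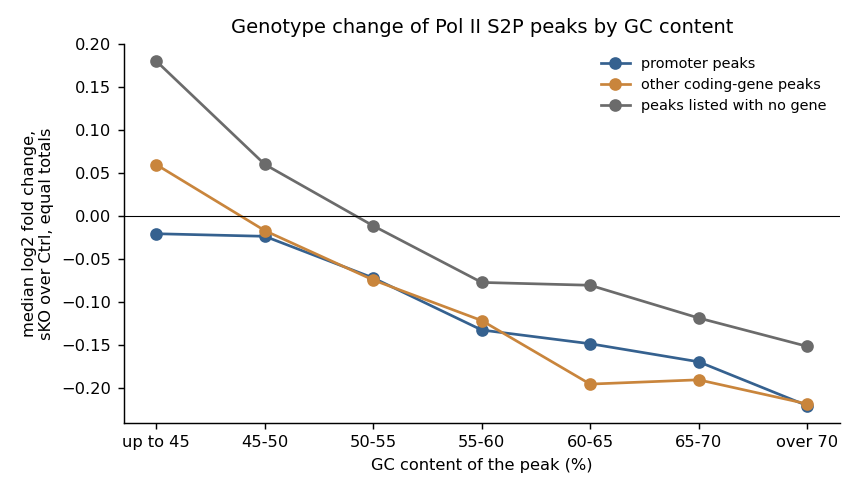
Median log2 fold change of sKO over Ctrl on equal totals, for promoter peaks, other coding-gene peaks and peaks listed with no gene, by GC content of the peak. All 3 classes have lower medians over 70% GC than up to 45%, promoters going from -0.02 to -0.22.

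On equal totals, 65 promoter peaks were called among 3932 tested, 15 higher and 50 lower in sKO. This is 0.381% and 1.27%, where 2.49% and 1.2% of all 22340 tested peaks were called higher and lower. Rescaling shifted the median of all peaks from 0.11 to -0.03, and the promoter median was -0.13, against -0.001 for the other peaks. In all 65 the 2 genotypes did not overlap on this scale. Both sKO libraries lay below both Ctrl libraries at 33.4% of tested promoter peaks and above both at 9.46%, while the background over all peaks was 24% and 20.5%. The calls depended on single libraries: 3 were made without Ctrl replicate 1, 20 without sKO replicate 1, 67 without sKO replicate 2 and 107 without Ctrl replicate 2, of which 3, 13, 27 and 44 were among the 65. After GC centring 41 remained, 24 higher and 17 lower (background 2.24% and 0.913%), of which 13 and 17 were among the original calls.

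Replication-dependent histone genes had more promoter peaks called lower than any other list, 8 against at most 2, in lists of unlike size. These genes are transcribed mainly in S phase to package newly made DNA, lie in clusters, and yield mRNAs that end in a stem-loop in place of a poly(A) tail. Promoter peaks were found at 28 of them, 36 peaks in all, of which 27 were tested. Of the 27, 8 were called lower on equal totals and 0 higher, where 1.27% of tested promoter peaks and 1.2% of all peaks were called lower. Their median log2 fold change was -0.52, against -0.13 for promoter peaks and -0.03 for all peaks. Both sKO libraries lay below both Ctrl libraries at 18 of the 27 (66.7%), where this held for 33.4% of all tested promoter peaks and 24% of all peaks. The list was set with earlier results of these data known, so its counts are a description.

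The smallest adjusted p in the group was that of Hist1h4i, which encodes an H4 histone (chr13:22040212-22041479, centred 517 bases downstream of the start). It scored 228 and 282 in Ctrl and 142 and 145 in sKO, without overlap even on the deposited scale, and on equal totals its log2 fold change was -0.96 ± 0.20 (limma adjusted p = 0.00186). Hist1h3b scored 159 and 171 against 124 and 76 (-0.90 ± 0.23, limma adjusted p = 0.0139), and Hist1h3d 175 and 157 against 140 and 74 (-0.84 ± 0.23, limma adjusted p = 0.0278). These are H3 genes. Among the H2B genes, Hist1h2bb scored 218 and 203 against 175 and 123 (-0.66 ± 0.21, limma adjusted p = 0.0673), Hist1h2bf 131 and 156 against 104 and 85 (-0.74 ± 0.24, limma adjusted p = 0.0753), and Hist2h2bb, on chromosome 3, 150 and 170 against 116 and 87 (-0.80 ± 0.23, limma adjusted p = 0.0354). The H2A gene Hist1h2ag scored 109 and 101 against 78 and 46 (-0.94 ± 0.28, limma adjusted p = 0.0491). A peak 988 bases downstream of the start of Hist1h3c, another H3 gene, scored 102 and 132 against 82 and 51 (-0.97 ± 0.27, limma adjusted p = 0.0262). Its other peak, centred 161 bases upstream, was not called, at 92 and 72 against 71 and 72 (-0.32 ± 0.29, limma adjusted p = 0.668).

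Lower values were found in all 4 classes of core histone. The median on equal totals was -0.52 for 7 tested H2A peaks, -0.58 for 6 H2B peaks, -0.56 for 8 H3 peaks and -0.53 for 6 H4 peaks. By location it was -0.65 for the 20 peaks in the large cluster on chromosome 13, 16 of which lay lower in both sKO libraries, and -0.24 for the 7 elsewhere, 2 of which did. Hist2h2ac, on chromosome 3, scored 154 and 186 in Ctrl with 124 and 145 in sKO and was not called (limma adjusted p = 0.287). Hist3h2a on chromosome 11 scored 155 and 225 in Ctrl and 239 and 208 in sKO, and the upstream peak of Hist1h2bk 89 and 93 against 94 and 109, so not all of these promoters were lower. Summed over all 36 peaks, histone promoters scored 3594 and 4009 in Ctrl and 3165 and 2582 in sKO, which was 0.111% and 0.0954% of the autosomal score against 0.0654% and 0.0759% (exact permutation p = 0.333, two-sided). The genotypes overlapped in neither sum nor share.

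The change of histone promoters was larger than that of promoters of like GC content. The tested histone peaks had a median GC content of 50.5%, where promoter peaks of 50 to 55% had a median change of -0.07. Their own median stayed at -0.51 after GC centring, and 6 of the 8 calls were kept. Without Ctrl replicate 1, sKO replicate 1, sKO replicate 2 and Ctrl replicate 2 in turn, 1, 4, 6 and 8 histone peaks were called lower, of which 1, 4, 4 and 6 were among the original 8, with medians of -0.42, -0.51, -0.63 and -0.69. Histone genes are near-identical in their coding parts, which limits unique alignment there, and 10 of the 36 peaks held the start of a second coding gene, mostly an H2A and H2B pair transcribed in opposite directions. The share of cells in S phase is not given by these libraries. By flow cytometry of cultured MuSCs, the study found no significant difference between genotypes in the G0/G1 or S-phase shares. It did find slightly more sKO cells in G2/M. Whether the cell cycle bears on the histone peaks was not tested.

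**Figure D4:**
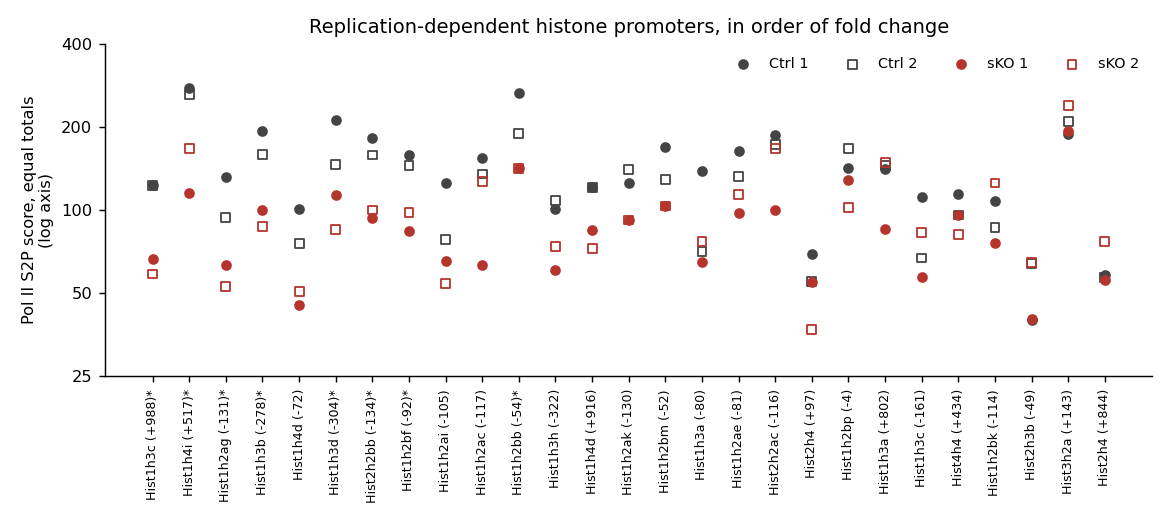
Pol II S2P score on equal totals (log axis) in the 4 libraries for the 27 tested promoter peaks of replication-dependent histone genes, ordered by fold change; the number in parentheses is the distance of the peak centre from the start in bases, and an asterisk marks a call. At 18 of the 27 both sKO libraries lie below both Ctrl libraries.

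Genes of DNA replication and the cell cycle also included lower promoters, with fewer calls. Of 38 listed genes, 24 had a promoter peak. Of 21 tested peaks, 2 were called lower and 0 higher, with a median of -0.28 on equal totals. Rrm2, which encodes the regulated subunit of ribonucleotide reductase, scored 252 and 237 in Ctrl and 199 and 138 in sKO (-0.70 ± 0.20, limma adjusted p = 0.0341). Pcna, the sliding clamp of DNA polymerases, scored 225 and 295 against 220 and 153 (-0.63 ± 0.19, limma adjusted p = 0.0527). Both sKO libraries lay below both Ctrl libraries at 9 of the 21 (42.9%), where this held for 33.4% of all tested promoter peaks and 24% of all peaks. Mcm10, E2f3 and Cdk4 had log2 fold changes between -0.12 and -0.01 and were not called. Neither Rrm2 nor Pcna was called after GC centring, which left values of -0.57 and -0.50. Replication-independent histone genes, chosen after their values were seen, were not called either. H2afx, the variant phosphorylated at DNA breaks, scored 212 and 208 against 194 and 132, a change of -0.53 ± 0.20 (limma adjusted p = 0.164) that is as large as the median of the replication-dependent genes. H2afv scored 414 and 423 against 431 and 310 (-0.33 ± 0.16, limma adjusted p = 0.319) and H2afz 76 and 74 against 59 and 63 (-0.43 ± 0.31, limma adjusted p = 0.549). H3f3a, at 43 and 61 against 37 and 40, was not tested.

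The remaining lower promoters belonged to varied functions. By fold change they were led by Prdx5, with -1.09 ± 0.30 (limma adjusted p = 0.0263), and by Mrpl46, a mitochondrial ribosomal protein gene which scored 93 and 108 against 51 and 54 (-1.06 ± 0.29, limma adjusted p = 0.0301). The Mrpl46 peak also held the start of Mrps11. Gart, an enzyme of purine synthesis, scored 122 and 156 against 85 and 70 (-0.97 ± 0.25, limma adjusted p = 0.0136), and Zfp46, a zinc finger gene, 85 and 118 against 67 and 47 (-0.96 ± 0.29, limma adjusted p = 0.0467). These 4 were still called after GC centring. Of the 50 lower peaks, 43 were CpG-rich with a ratio above 0.6, 5 had a ratio under 0.4, and 18 (36.0%) lay in an H4K20me1 peak, against 51.8% of all tested promoter peaks.

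The higher promoters were of another kind. Their median GC content was 50.7%, against 58.8% for the lower ones, and 11 of the 15 had a CpG ratio under 0.4, which was the case for 8.04% of all tested promoter peaks. Of the 316 tested CpG-poor promoter peaks, 3.48% were called higher, close to the 3.21% of 16178 CpG-poor peaks outside promoters. Only 2 of the 3115 CpG-rich promoter peaks were. In position, 7 of the 15 had centres over 500 bases downstream of the start, where 11.6% of tested promoter peaks lay, and 12 of the 15 lay in an H4K20me1 peak.

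Gm1113 led them on equal totals, its log2 fold change being 1.81 ± 0.37 (limma adjusted p = 0.0012), followed by Dpp7, a dipeptidyl peptidase, with 17 and 54 in Ctrl and 106 and 76 in sKO (1.39 ± 0.37, limma adjusted p = 0.0217). Perm1, a muscle regulator of mitochondrial and oxidative genes, scored 20 and 46 against 105 and 69 (1.32 ± 0.37, limma adjusted p = 0.0348), and Zfp729b 29 and 74 against 175 and 94 (1.31 ± 0.29, limma adjusted p = 0.0039). Adssl1 encodes the muscle form of adenylosuccinate synthase, an enzyme of the purine nucleotide cycle, and scored 69 and 156 against 257 and 191 (0.95 ± 0.22, limma adjusted p = 0.00652). Ampd1, the muscle AMP deaminase of the same cycle, was called too, at 79 and 140 against 269 and 142 (0.75 ± 0.22, limma adjusted p = 0.0463). In each of these 6, Ctrl replicate 1 had the lowest score of the 4 libraries. Nacad, whose promoter is printed above, scored 92 and 178 against 319 and 203 (0.85 ± 0.21, limma adjusted p = 0.00981), and Gp1ba, which encodes a platelet glycoprotein, 57 and 102 against 222 and 116 (0.92 ± 0.24, limma adjusted p = 0.0189). Tnfrsf4, Pabpc1l, Celf5, Gpr157, Fxyd4, Nras and Fbxw9 completed the group, with log2 fold changes from 0.54 to 0.94. After GC centring Ampd1 and Nras had log2 fold changes of 0.64 and 0.52 and were no longer called. Genes of muscle were not only among the higher ones, since a promoter peak of Ttn, the giant sarcomere protein, was called lower with 162 and 205 against 148 and 109 (-0.66 ± 0.21, limma adjusted p = 0.081) and still after GC centring (-0.67, limma adjusted p = 0.0693).

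The lists of other functions gave few calls on equal totals and none on the deposited scale. In the Pol II elongation and pausing list, 21 of 33 genes had a promoter peak, and of 15 tested peaks none was called in either direction, with a median of -0.27 and 8 lower in both sKO libraries (53.3%, against the same 33.4% and 24%). Hexim1, the inhibitor of P-TEFb, scored 298 and 264 in Ctrl and 357 and 265 in sKO, while Ccnk, the cyclin of Cdk12, scored 241 and 240 against 195 and 176 and did not pass the test (limma adjusted p = 0.16). Pcf11, which helps to end transcription, scored 204 and 248 against 245 and 155. In the list of satellite cell and myogenic factors, 12 of 30 genes had a peak and 1 of 9 tested peaks was called lower. It was Id3, an inhibitor of MyoD-type factors, at 411 and 380 against 355 and 264 (-0.51 ± 0.17, limma adjusted p = 0.0979), and at -0.45 it was not called after GC centring. Mef2d, a partner of the myogenic factors, scored 114 and 101 against 130 and 76. Myod1 had a change of -0.52 ± 0.20 (limma adjusted p = 0.161).

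Immediate early genes were widely occupied, with 17 of 26 genes holding a promoter peak, all of them tested and none called, at a median of -0.31. Jun, a subunit of AP-1, scored 238 and 350 in Ctrl and 241 and 235 in sKO, and Srf, which drives the immediate early response, 188 and 323 against 302 and 202. Klf10, a zinc finger factor induced by TGF-beta, scored 309 and 345 against 328 and 243 and lay lower in both sKO libraries on equal totals only. Of the genes for the cytoskeleton of proliferating cells, 21 of 26 had a peak, and 1 of 23 tested peaks was called, namely Vim, the intermediate filament of mesenchymal cells. Its scores were 698 and 461 against 494 and 345 (-0.60 ± 0.17, limma adjusted p = 0.0353), with overlap on the deposited scale but not on equal totals. After GC centring the value was -0.47 and not called. The median of that list was -0.36, with Zyx, Myl6 and Myh9 between -0.41 and -0.28 and not called.

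Splicing factor genes had a promoter peak in 24 of 32 cases, and 1 of 22 tested peaks was called, that of Hnrnpa0, an RNA-binding protein, at 205 and 243 in Ctrl and 190 and 102 in sKO (-0.82 ± 0.20, limma adjusted p = 0.0124). The median of the list was -0.18. Translation was represented by 62 genes, mostly of ribosomal proteins, with 71 promoter peaks. Of 51 tested, none was called in either direction and the median was also -0.18, with Rps19 at -0.35. In the list of DNA damage, p53 and H4K20 methylation genes, 14 of 33 had a promoter peak, 12 peaks were tested and none was called, with a median of -0.12. Extracellular matrix genes were thinly represented, as 8 of 25 had a promoter peak and 3 peaks passed the filter, at Itgb1 and Cd44, again with no call. Rasa1, a Ras GTPase-activating protein, had a weak peak that was not tested, at 8 and 29 against 18 and 5, and Arid4b scored 264 and 268 against 325 and 261. Agap2 had no promoter peak.

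A promoter peak was often the only peak of its gene. No further Pol II S2P peak was listed for 2371 of the 5363 genes (44.2%), which had a median gene length of 14.2 kb, while the 2992 genes with further peaks had one of 24.1 kb. The promoter score per kilobase was close in the 2 sets, at medians of 146.5 and 154.0, and so was the change on equal totals, at -0.12 and -0.15. A protein-coding gene starting on the opposite strand within 1000 bases upstream was found at 647 promoter peaks (10.8%). These had a median score per kilobase of 162.9 and a median change of -0.18, against 149.2 and -0.13 for the others.

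The ratio of promoter to gene-body signal needs no scaling between libraries, because both parts come from the same library. It was formed from the summed promoter peaks and the summed other peaks of each gene, without division by length, and 1726 genes with a mean over 50 in both parts were compared. The promoter exceeded the body in Ctrl at 597 of them (34.6%), with a median of 3 body peaks per gene. The highest ratios in Ctrl, with a mean log2 ratio above 3, included those of Stub1, Hdgfl2, Zfp687 and Rab40c, each with 1 or 2 body peaks. Stub1, a ubiquitin ligase, had 430 and 503 at the promoter and 36 and 43 in the body. The lowest, under -5, belonged to Runx1, Slc6a6, Nedd4, Sh3glb1 and Gm1113. Runx1, a transcription factor, had 111 and 116 at the promoter and 7575 and 9756 over its 105 body peaks.

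The median log2 ratio was -0.648 and -0.682 in Ctrl against -0.794 and -0.790 in sKO, a difference of -0.127. The genotypes did not overlap and the pooled standard deviation was 0.017, with an exact permutation p of 0.333, the smallest possible. Both sKO libraries lay below both Ctrl libraries at 575 genes (33.3%) and above both at 180 (10.4%). In the promoters of these genes the median GC content was 60.4% and in their bodies 48.0%. After GC centring the medians of -0.743 and -0.707 (Ctrl) and of -0.727 and -0.765 (sKO) overlapped, and the difference was -0.021.

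For single genes, 4 ratios were called higher and 8 lower in sKO by the same limma test, or 0.232% and 0.463% of those tested. Mfn1, which fuses mitochondria, had promoter scores of 63 and 76 (Ctrl) against 95 and 48 (sKO), and body scores of 27 and 31 against 102 and 70. Its log2 ratio went from 1.19 and 1.27 to -0.10 and -0.54, a change of -1.55 ± 0.31 (limma adjusted p = 0.044). The promoter scores overlapped between genotypes and the body scores did not. Lrig2 was alike, with 169 and 240 against 179 and 139 at the promoter and 58 and 86 against 187 and 106 in the body, a change of -1.34 ± 0.32 (limma adjusted p = 0.0679). Minos1 and Vcpip1 changed by -1.31 and -1.15, and Peak1, Pdap1, Vamp9 and Mrnip by -1.14 to -0.99. Among the higher ratios, Mfsd2a, a lipid transporter, had 29 and 54 against 88 and 60 at the promoter and 193 and 241 against 209 and 152 in the body, a change of 1.13 ± 0.28 (limma adjusted p = 0.0679). Gm1113 changed by 1.35, Gm4869 by 1.33 and Dpp7 by 1.16. No call was left without Ctrl replicate 1, without Ctrl replicate 2 or after GC centring.

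**Figure D5:**
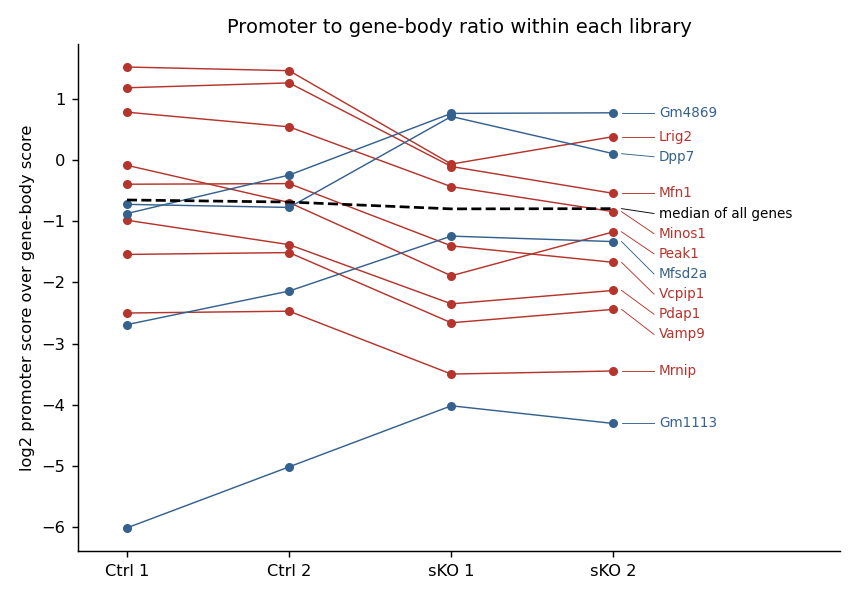
Log2 ratio of promoter to gene-body Pol II S2P score in each library for the 12 genes called, lower in red and higher in blue, with the median of all 1726 genes as a dashed line; lines join the values of a gene. The median moves from -0.648 and -0.682 in Ctrl to -0.794 and -0.790 in sKO.

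H4K20me1, the product of Kmt5a and the substrate of Kmt5b, was mapped in the same study. The centre of 3134 promoter peaks (52.4%) lay in an H4K20me1 peak, against 74.4% of Pol II S2P peaks elsewhere in coding genes and 49.7% of those listed with no gene. Promoter peaks inside and outside H4K20me1 peaks had like scores per kilobase, at medians of 150.4 and 150.5, the same median GC content of 60.3% and median gene lengths of 18.9 and 17.9 kb. In Ctrl, the Pol II S2P and H4K20me1 scores per kilobase had a Spearman correlation of 0.0786 over these 3134 promoter peaks, several of which can share an H4K20me1 peak.

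The 2446 H4K20me1 peaks that held a promoter were long, with a median of 27800 bases against 8200 for the others. Their median H4K20me1 score per kilobase was 21.7 and 28.1 in Ctrl and 51.7 and 55.4 in sKO. On the deposited scale 2218 of 2444 tested were called higher (90.8%) and 0 lower, close to the 90.1% and 0.00244% of all tested H4K20me1 peaks. The median log2 fold change was 1.11, against 1.15 for the remaining peaks. The libraries weighed on this count. With 1 sKO library left out, 1264 (sKO replicate 1) or 1014 (sKO replicate 2) were called. On equal totals 673 were called higher and 203 lower, or 27.5% and 8.31%, against 22.5% and 4.42% of all peaks. That scaling sets the spike-in aside and takes out any change shared by all peaks. Calls on it are therefore relative to the other peaks, and the lower ones are not losses on the deposited scale. The study reports raised H4K20me1 in sKO cells by Western blot and immunofluorescence.

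The H4K20me1 change and the Pol II S2P change had a Spearman correlation of -0.0111 over 2034 promoter peaks, across peaks that can share an H4K20me1 peak. The median Pol II S2P change on equal totals was -0.11 inside H4K20me1 peaks (n = 2036) and -0.16 outside (n = 1896). After GC centring these were 0.02 and -0.04. Histone promoters lay mostly outside H4K20me1 peaks, with 2 of all 36 centres and 1 of the 27 tested inside, and 0 of the 8 called lower.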

How the data were processed

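CUT&RUN libraries of cultured MuSCs were grouped by the genotype in the labels, 2 Ctrl and 2 sKO for each of 2 antibodies, with DNA of Drosophila S2 cells as spike-in. Tools named in the submitters' processing notes were MACS2 2.1.1, SICER 0.0.41, Picard 2.21.7 for duplicates, the aligner STAR 2.7.3a, Trimmomatic 0.39 and FastQC 0.11.8. Reads were aligned to the GRCm38 build and 1 set of peaks was made per antibody. The deposited score of each peak and library is, per the study's methods, a spike-in normalised coverage, rounded to whole numbers by the authors. It is not a read count, so the reads behind a single score are unknown, and the number of libraries limits the precision. The study does list the depth of each library. For both antibodies, both sKO libraries had more uniquely mapped reads than both Ctrl libraries. Each peak was listed by the authors with the gene of longest overlap, the fraction of its length inside that gene and the distance of its centre from the start, on which the selection rests.

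GC content, CpG ratio and motifs were computed from RefSeq GRCm38.p6 (pysam 0.24.0). Genotypes were compared with limma 3.58.1 (trend) in R 4.3.3 on log2(score + 1), over all autosomal peaks with a mean above 50, and p-values were adjusted over all of them. On equal totals, each library was scaled to the same autosomal sum. The promoter to gene-body ratio was tested in the same way. For single values per library an exact permutation test (two-sided) was used. The fit was tested on simulated data of 22375 peaks with no difference in scale between libraries. It recovered 100 of 100 peaks changed by 2 on the log2 scale and 74 of 100 changed by 1, with 18 false calls. The ratio fit recovered 74 and 4 of 100, with 3 false calls. The simulated spread was assumed and not fitted to these data, and no change with GC content was put in. The rates therefore need not hold on equal totals. The deposited libraries differed in scale, so these rates do not hold for the deposited scale. There, for example, Pabpc1l was not called at 1.05 ± 0.40. Alternatives were other scalings, pseudocounts, filters and distances, a replicate block, leaving out each library and, chosen after seeing the data, GC centring and the alternatives on equal totals.

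Promoter peaks and gene lists were chosen with earlier results of these data known. Named were the 12 highest scores, the 5 largest changes in each direction (filled by p where too few were called), the 4 highest scores and all calls of each list, genes named by the study, and the 5 highest and lowest ratios. Zfp46, Ttn, Hist1h2bk, the replication-independent histones, the other higher promoters on equal totals and the promoters printed as sequences were chosen after their values were seen. One gene that this rule names is not reported here. Symbols come from GENCODE M21 by gene ID, since 281 listed symbols differed or were missing. Replicate numbers were not used to pair the libraries in the main fit. Across peaks, the replicate differences of Ctrl and sKO correlated at -0.044 for Pol II S2P and 0.035 for H4K20me1. This shows no shared pattern over peaks, but it cannot show whether the libraries were prepared in pairs.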

Additional observations from a re-analysis of the deposited data

Results flagged for a closer look

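Promoter peaks outside the autosomal selection carried Pol II S2P score too. The 119 protein-coding promoter peaks on the X chromosome summed to 6444 and 8511 (Ctrl) against 8505 and 6313 (sKO), with a lowest library total of 6313. They held 19.5% and 20.1% of the X chromosome's score in Ctrl and 17.4% and 18.4% in sKO, again without overlap (exact permutation p = 0.333, the smallest possible). The autosomal promoter peaks of 2000 bases or longer, 94 in number, summed to 54360 and 66950 (Ctrl) against 79243 and 54253 (sKO), so that every library exceeded 0 and the genotypes overlapped. The IgG controls were not analysed here, so these totals have no background beside them.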

How the results depend on the processing

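On the deposited scale, 0 promoter peaks were called, against 65 on equal totals, 38 with median of ratios and 43 with quantile normalisation, and from 0 to 2 with 1 library left out (2 without sKO replicate 2). Their median log2 change of 0.007 became -0.133, -0.134 and -0.115 under those scalings and ran from -0.208 to 0.235 with 1 library left out, being -0.166 without Ctrl replicate 1. The direction on the deposited scale therefore depends on the scaling, and the cause was not tested. Calls on equal totals were 41 after GC centring and from 3 to 107 with 1 library left out (3 without Ctrl replicate 1, 107 without Ctrl replicate 2, 20 without sKO replicate 1). Their median of -0.133 became -0.010 after GC centring and ran from -0.158 to -0.094 (without sKO replicate 1). The share difference of -1.422 percentage points became -0.321 after GC centring and ran from -1.681 to -1.163. The 12 ratio calls became 1 with a mean above 20, 1 within 500 bases and 0 after GC centring, with 0 to 16 when a library was left out, and the median of -0.127 became -0.021 after GC centring. For H4K20me1, 2218 calls became 876 on equal totals, 875 with median of ratios and 651 with quantile normalisation, and ran from 1014 to 2338 with a library left out. The median of 1.109 became 0.127, -0.037 and 0.183, and ran from 0.915 to 1.293. Rescaling of this kind takes out a change shared by all H4K20me1 peaks. With the replicate block, the counts were 0 promoter peaks, 52 on equal totals, 14 ratios and 2202 H4K20me1 peaks, with the same medians. With 2 libraries per genotype, leaving 1 out assumes that the lone library varies like the others.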

Other observations

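A few neighbours of the called genes were seen after their values were known. The peak of Bola1, called lower on equal totals at 173 and 203 (Ctrl) against 124 and 109 (sKO), holds the start of the histone gene Hist2h2ab, and 299 bases separate it from the peak of Hist2h2ac. Its listed gene thus hides a further histone promoter, which is not among the 36 histone peaks. Nras and Ampd1, both called higher on equal totals, have peak centres 14.9 kb apart on chromosome 3, so they are not independent places in the genome.

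Motifs also differed in frequency between the called groups, as a description of few windows. The CCAAT box was found in 30 of 47 windows of lower genes (63.8%), in 3 of 13 windows of higher genes (23.1%) and in 48.6% of the 3034 windows of tested genes. The TATA box was found in 9 of the 47 (19.1%) and 0 of the 13, against 6.49% of tested genes. The lower genes include the replication-dependent histone genes called lower. Windows of that class held a CCAAT box in 84.6% and a TATA box in 57.7% of cases. The frequencies among lower genes without them were not computed.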
